A study of Mus musculus with 6 samples.

Results

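The transcriptome described here is that of hematopoietic stem cells (HSCs) from wild-type (WT) mice, chosen by the genotype label, which holds 3 of the 6 samples of the series. The other 3 samples were not used here. Each WT sample was 1 library from 1 untreated female C57Bl/6 mouse of 8 weeks, so the libraries are separate animals and no treatment or genotype was compared. HSCs were sorted from bone marrow as Lin-Sca1+cKit+ cells that carried CD150 and lacked CD48, and cDNA was made with the SMART-Seq v4 kit and turned into Nextera XT libraries. The labels number the mice in more than 1 way, and replicates 2, 3, and 4 are named here as in the column headers. Each library is a bulk average, in which fewer cells of a type and less RNA per cell cannot be told apart.

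HSCs renew the blood throughout life. They are held in the bone marrow niche by stem cell factor, chemokines, and adhesion molecules, which they sense through receptors at their surface. They also carry receptors for interferons and other inflammatory signals, and a set of transcription factors that binds together at many blood genes keeps their identity.

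The reads counted on genes were 59658080, 45332573, and 43267486 in replicates 2, 3, and 4, in the same order as all values below. At this depth 21660, 21106, and 22249 genes had at least 1 read. A gene was called expressed where each of the 3 libraries held at least 1 CPM (reads scaled to the library's total on genes, here 59.7, 45.3, and 43.3 reads), and undetected where no library held more than 3 reads. This floor of 3 reads was worth 0.0503, 0.0662, and 0.0693 CPM. It covers counting error only, since the libraries carry no molecular identifiers. The totals are larger than the depth stated for the sequencing, and whether both ends of a fragment were counted apart is not stated, so a read here may be less than a fragment in the floor, in counting errors, and in intervals. Of 26264 genes, 12530 were expressed (47.7%), 4957 were undetected (18.9%), and the other 8777 were low or uneven. Among undetected genes, 2685 had no read in any library. Of 21027 protein-coding genes, 56.8% were expressed, against 14.5% of 3318 long noncoding RNAs. Counts of expressed genes in the lists below are read against the 56.8% of protein-coding genes. A share near it is no result about a list.

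Values of a gene across libraries are given as normalized counts. Apart from the ranking of genes by mean normalized count, levels are compared between genes only per kilobase (kb) of transcript. Levels per kb are given as mean ± SD over the 3 mice (SD, *n* = 3). On that scale the median of all expressed genes was 671 per kb.

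The HSC label was first checked against marker genes. All 15 of 15 HSC markers were expressed, with a summed level of 65037, 66782, and 61352 per kb. The set holds *Slamf1* and *Ly6a*, which encode antigens of the sort gate, so their expression is no check. *Procr*, which encodes the EPCR protein used to enrich HSCs, had 4487, 3754, and 4147 normalized counts. *Hoxb5*, a homeobox gene that marks long-term HSCs, was the least abundant marker per kb, with 560.4, 452, and 498 normalized counts. It was even across mice and lay below the median of expressed genes, at 179 ± 19.4 per kb. *Hlf*, a transcription factor gene of stem cells, had 15310.3, 12357, and 14294 normalized counts. *Mecom*, whose product EVI1 sustains HSCs, had 10045, 8933, and 9334 normalized counts. All libraries thus carried the whole marker set at levels that differed little between mice.

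Marker lists of mature cell types differ in length, so their sums are not ranked against one another. All 6 of 6 megakaryocyte markers were expressed, with a summed level of 21560.3, 23285, and 21124 per kb, led by *Pf4*. Of 5 monocyte and macrophage markers, 4 were expressed, with a sum of 17974, 22621, and 20122 per kb that was almost all *Lyz2*. Granulocyte markers, of which 2 of 10 were expressed, summed to 6446, 4971, and 15565 per kb, with *Prtn3* as the most abundant gene. The sum of replicate 4 was therefore the highest, and none of these granulocyte markers was at 0 in all libraries. Erythroid markers (2 of 6 expressed) summed to 2343, 1761, and 3018 per kb, mostly from *Car1*, with *Hba-a1* and *Hbb-bs* at 0 reads. These globin genes have near-identical copies, and *Hba-a2* and *Hbb-bt* were at 0 reads as well, so their absence is uncertain.

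Lymphoid markers were few. B cell markers (2 of 7 expressed) summed to 2014, 2265, and 1925 per kb, nearly all from *Cd79b*, a chain of the B cell receptor. T cell markers (2 of 6 expressed) summed to 483, 557, and 590.0 per kb, led by the kinase gene *Lck*. Natural killer (NK) cell markers (1 of 3 expressed) summed to 203, 152, and 213 per kb, with *Klrb1c* on top and *Gzma* at 0. The dendritic cell markers, with none of 3 expressed, summed to 28.9, 18.2, and 58.1 per kb. Mast cell, basophil, and eosinophil markers (2 of 5 expressed) summed to 244, 301, and 268 per kb, most of it *Cpa3*. Endothelial markers (3 of 4 expressed, led by *Kdr*) summed to 146, 189, and 239.6 per kb. The longer endothelial list, with 9 of 12 expressed, summed to 9462, 9209.8, and 9707 per kb, led by *Tie1* and holding genes that HSCs share, such as *Vwf* and *Emcn*. Stromal markers, with none of 4 expressed, were at 24.9, 26.2, and 46.7 per kb, led by *Cxcl12*, and the longer stromal list (4 of 14 expressed) was at 730.0, 825, and 889 per kb, led by *Runx2*.

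The most abundant gene by mean normalized count was *Adgrg1*, which encodes the adhesion receptor GPR56. *Adgrg1* had 222655, 222089, and 193071 normalized counts and took 0.454, 0.435, and 0.415% of all reads on genes. *H2-K1*, a class I antigen-presenting chain, came next with 151704, 175629.6, and 154794 normalized counts. *Serinc3*, a membrane protein gene, had 160925, 162899.6, and 157157, and the actin gene *Actb* had 117381, 143463, and 131236. The next ranks held *Eef1a1* (translation elongation), *B2m* (the light chain of class I molecules), *Ftl1* (ferritin light chain), *Car2* (carbonic anhydrase), *Atp5b* (ATP synthase), and *Hsp90ab1* (chaperone). Rank 11 was *Hspa8*, a chaperone gene, which was uneven, with 90580.4, 113346, and 55144 normalized counts (CV 34.0%). It was the only gene that averaged 10000 or more with a ratio of highest to lowest library of at least 2. The ranks to 20 included *Ubb*, *Ankrd13a*, *Ldha*, *Kit*, *Eif5a*, *Cnbp*, *Hnrnpk*, and *Itm2b*. Of these *Kit* was part of the sort gate, so its level is no finding.

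Together the 20 most abundant genes took 4.05, 4.25, and 4.18% of reads, and the top 1000 took 40.8, 41.7, and 40.8%. Per kb of transcript, *B2m* ranked first with 116435 ± 1838. *Ftl1* followed with 97130.4 ± 4670.3 per kb and *H2-K1* with 85757 ± 6944 per kb. The next of the 10 highest per kb were *Gpx1*, which encodes a peroxide-reducing enzyme, *Eef1a1*, *Actb*, *Adgrg1*, *Pfn1* (an actin-binding protein), *Ubb*, and the ferritin gene *Fth1*. This ranking depended on the length used, since 10 of the 20 highest per kb stayed when the median transcript length replaced the longest. With the longest transcript, *Adgrg1* stood at rank 7 per kb, with 63788 ± 5076, and *Kit* at rank 103.

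Libraries agreed closely over the expressed genes. Spearman's rank correlation between replicates 2 and 3 was 0.994 over 12530 expressed genes, and 0.993 and 0.991 for replicates 2 and 4 and replicates 3 and 4. Such correlations partly reflect the wide range of levels between genes. The share of expressed genes within 1.5-fold of each other was 94.2%, 93.4%, and 91.8% in the same pairs. The median coefficient of variation (CV) was 42.9% for genes whose normalized counts averaged 10 to 100, where counting error alone gave 18.6%. It was 7.32% for genes that averaged 10000 or more, where counting error gave 0.816%. The spread of abundant genes thus exceeded counting error, and these data do not separate mice from preparations.

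A few genes were very even after scaling by size factors. *Rnf187*, a ubiquitin ligase gene, had 24049, 23919.5, and 23826 normalized counts, a CV of 0.468%. *Ldb1*, the adaptor that links LMO2 to its DNA-binding partners, had 11894, 11965, and 11851 normalized counts (CV 0.483%). *Slc44a2* (CV 0.512%), *Ptk2b* (0.820%), and *Tmem176b* (0.882%) were the other most even genes among the 1000 most abundant. Such values are the smallest of many and rest on the scaling used. For *Rnf187*, *Ldb1*, *Slc44a2*, and *Ptk2b* they lay below counting error. In CPM *Rnf187* had 489.9, 468, and 512, and *Ldb1* had 242, 234, and 255.

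In contrast, 461 expressed genes differed at least 2-fold between the highest and lowest library. Replicate 4 stood above the other mice at 168 of them (36.4%), and replicate 3 stood below at 115. Among genes that averaged 100 or more, 9 of the 10 largest ratios belonged to genes of mature blood cells, each too low in at least 1 mouse to count as expressed. *Jchain*, which encodes the joining chain of secreted antibodies and marks plasma cells, had 6.58, 4071, and 25.8 normalized counts. The ratio of highest to lowest was 618 (95% interval 313 to 1433), by the exact Clopper-Pearson method on reads. These intervals cover counting error alone, take reads as independent, and say nothing about the spread between mice, and the genes were chosen for their ratios. *Ly6c2*, a monocyte antigen gene, was also highest in replicate 3, with 2.47, 808, and 60.2 normalized counts and a ratio of 327 (95% interval 112 to 1591). Both high values came from the same mouse, where the summed B cell markers given above were also highest, by a far smaller margin, and so were the summed monocyte and macrophage markers (17974, 22621, and 20122 per kb). The part of other cells in *Jchain* and *Ly6c2* was not tested.

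The next 7 uneven genes encode granule and secreted proteins of neutrophils, and all were highest in replicate 4. *Ngp*, neutrophilic granule protein, had 30.4, 24.8, and 2535 normalized counts. *Ltf*, which encodes the iron-binding lactoferrin, had 45.3, 28.2, and 2032, and *S100a9*, a calcium-binding protein gene, had 36.2, 10.1, and 1246. *S100a8*, its partner, had 46.9, 13.5, and 1033 normalized counts. *Lcn2*, whose product binds bacterial iron carriers, had 2.47, 5.63, and 513 normalized counts and a ratio of 208 (95% interval 70.7 to 1012). *Camp*, an antimicrobial peptide gene (9.87, 20.3, and 666), and *Chil3*, a chitinase-like gene (26.3, 7.89, and 571), completed the set. The early granule genes *Prtn3*, *Mpo*, and *Elane* did not share this pattern in full. *Prtn3* had 6255, 4841, and 6445 normalized counts and *Mpo* had 227, 231, and 253, each within 1.5-fold across mice. *Elane* had only 6.58, 33.8, and 64.5 normalized counts. The Lin- gate of the sort excludes cells that carry the granulocyte antigens CD11b and Gr-1, but the part of mature neutrophils in these values was not tested. *Megf6*, not a neutrophil gene, was also highest in replicate 4 (23.9, 84.5, and 507).

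**Figure D1:**
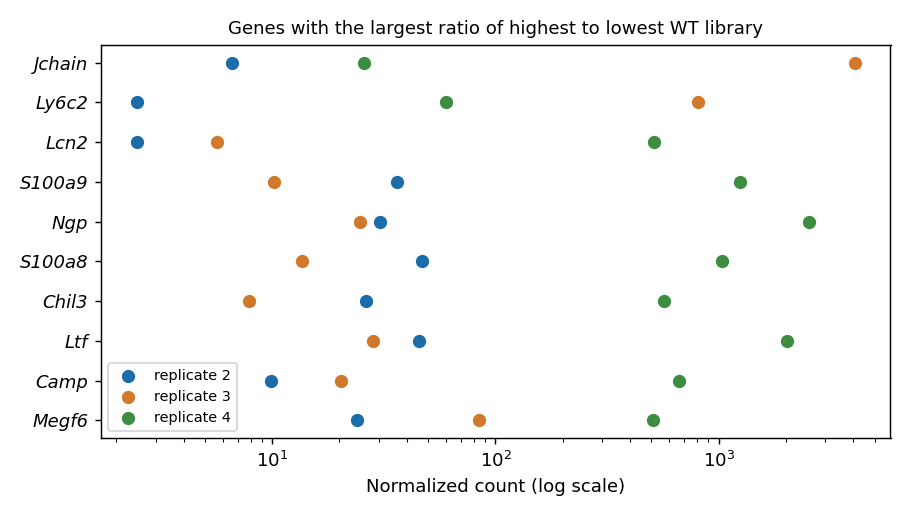
The 10 genes with the largest ratio of highest to lowest library among genes whose normalized counts averaged 100 or more, with the value in each WT mouse.

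Surface antigens used to define blood cells gave mixed results. The kept gate genes *Kit* (15757 ± 351 per kb), *Ly6a* (8970.0 ± 488), and *Slamf1* (1126 ± 65.3) follow from the sort. *Cd48*, whose protein was selected against, was still expressed, with 257, 326, and 359 normalized counts. *Cd34*, a sialomucin gene that is low on the most primitive mouse HSCs at the protein level, had 16728, 15798, and 16779 normalized counts. *Itga2b*, which encodes CD41 of platelets and some HSCs, had 33871, 45662, and 31700.4 normalized counts and 10788 ± 2186 per kb. *Flt3*, a receptor gene of multipotent progenitors, had 2656, 1729.9, and 2865, lowest in replicate 3. *Il7r*, a receptor of lymphoid progenitors, was low, with 5.76, 4.51, and 32.3 normalized counts. Of 7 lineage depletion antigens 3 were expressed, namely *Ptprc*, whose B cell isoform the depletion targets and which marks all blood cells (12987, 12203, and 11423), *Itgam* of myeloid cells (658, 1689, and 1480.3), and *Cd4* (117, 245, and 218). *Cd8a* was undetected, and *Ly6g* was seen in replicate 4 only (0, 0, and 46.3).

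Of 33 growth factor receptors of the tyrosine kinase and hematopoietin families, 25 were expressed (75.8%, against 56.8% of protein-coding genes), and none was undetected. *Tie1*, an orphan receptor of endothelial and stem cells, had 16191, 16497, and 15642 normalized counts, and *Tek*, the angiopoietin receptor, had 8769, 8532, and 7474. *Csf3r*, the G-CSF receptor, had 6448, 5676, and 4915 normalized counts. *Epor*, the erythropoietin receptor, had 2269, 2509.7, and 1794. *Csf1r*, the receptor of macrophage colony-stimulating factor, stood far below the median of expressed genes, at 62.6 ± 20.3 per kb. *Axl* and *Mertk*, kinases that bind GAS6, were both expressed, at 458 ± 29.4 and 60.0 ± 20.8 per kb. *Egfr*, *Erbb2*, *Pdgfra*, *Ret*, *Flt1*, *Fgfr2*, and *Il5ra* were low or uneven. Per kb, only 3 of 25 receptor kinases (*Kit*, *Tie1*, and *Tek*) exceeded the median of expressed genes, against 4 of 8 hematopoietin receptors.

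**Figure D2:**
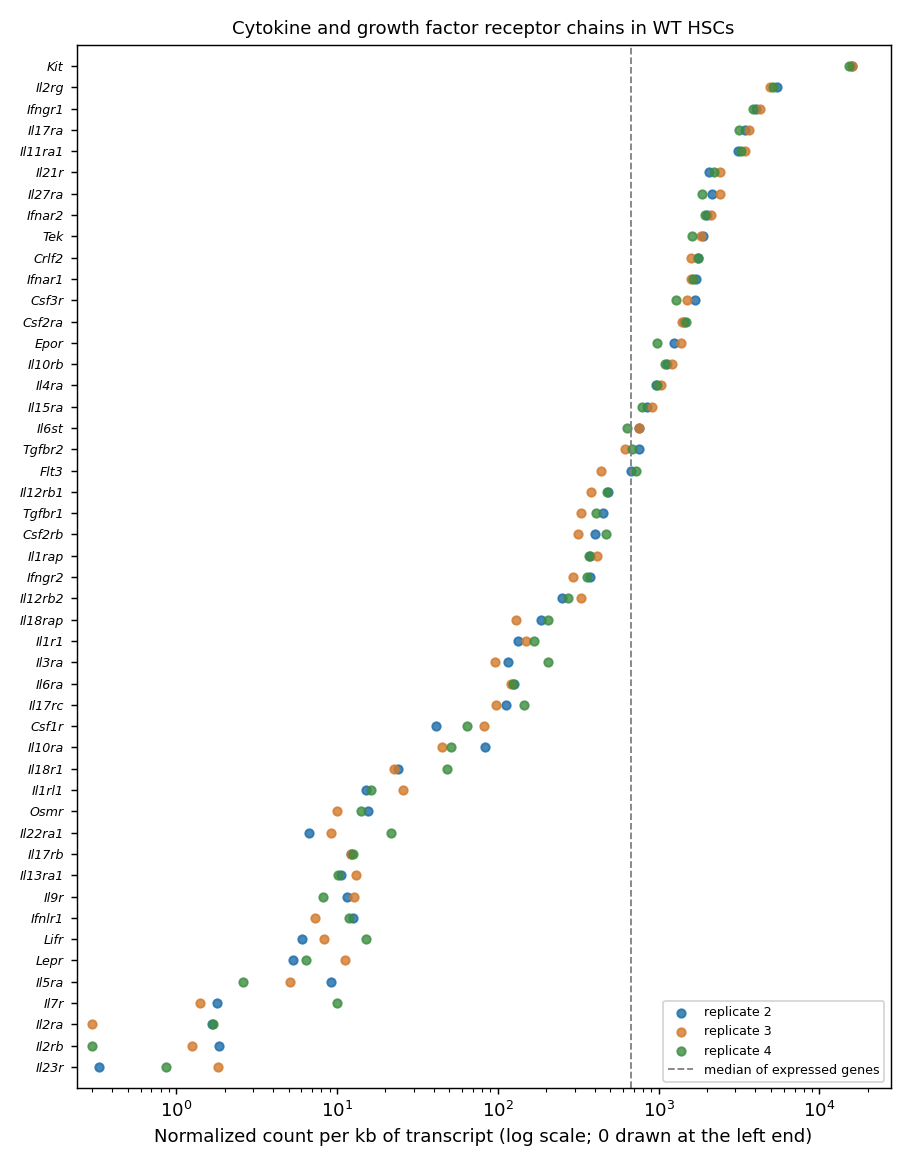
Normalized count per kb of transcript for chains of cytokine and growth factor receptors in each WT mouse, with the median of expressed genes as a dashed line.

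Interleukin receptors often need more than 1 chain. Among 33 chains, 21 were expressed (63.6%), near the 56.8% of protein-coding genes. *Il2rg*, the chain shared by the receptors of IL-2, IL-4, IL-7, IL-9, IL-15, and IL-21, had 9048, 8273, and 8641 normalized counts. Its partner *Il21r* had 5345, 6241, and 5777 normalized counts. *Il2rb*, needed to signal for IL-2 and IL-15, had 4.94, 3.38, and 0 normalized counts and lacked reads in replicate 4. *Il2ra* had 7.41, 1.13, and 7.53 and *Il9r* 51.8, 57.5, and 36.6, so only part of the partners of the shared chain were expressed in every library. *Il17ra*, for IL-17A and IL-25, had 13645, 14537, and 12594 normalized counts, and *Il17rb*, the IL-25 chain, had 31.3, 31.6, and 32.3. *Il6st*, the shared gp130 chain, had 3901, 3950.0, and 3296 normalized counts. *Il6ra* had 419.7, 401, and 413 and *Il11ra1* 8094, 8923, and 8443, whereas *Osmr*, the oncostatin M chain, was low at 75.7, 48.5, and 67.8. *Il27ra*, the IL-27 chain, had 5709, 6371, and 4927 normalized counts.

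In a table of 37 cytokine and growth factor receptors, 17 of 29 receptors of several chains had every chain expressed. The other 12 had at least 1 chain under 1 CPM in at least 1 library. Of 8 receptors of a single gene, 7 were expressed, with *Lepr* as the exception. The chains not expressed by this rule were *Il2ra* and *Il2rb* (IL-2 and IL-15), *Il7r* (IL-7 and TSLP), *Il9r*, *Il13ra1*, *Il5ra*, *Osmr*, *Il22ra1*, *Il23r*, *Il17rb*, and *Ifnlr1*. The rule takes no account of transcript length. *Lifr*, of the LIF receptor, counted as expressed at 9.79 per kb, whereas *Osmr* (13.2 per kb) and *Il22ra1* (12.6 per kb) did not. For 7 receptors the HSCs also expressed every ligand gene considered: IL-27, IL-18, IL-4, M-CSF, FLT3 ligand, angiopoietin, and TGF-β. For 17 the receptor was complete and a ligand gene was not expressed, among them stem cell factor, G-CSF, GM-CSF, IL-3, IL-6, and the type I and type II interferons. For 4 the ligand gene was expressed and the receptor was not complete, namely oncostatin M, IL-7, IL-15, and TSLP. For 8 neither side was complete. The leptin receptor had no ligand in the table and is in none of these groups. RNA of a ligand and its receptor in the same bulk sample does not show signalling in 1 cell.

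The IL-1 family was expressed at low levels. *Il1r1*, the signalling IL-1 receptor, had 151 ± 16.7 per kb, and *Il1rap*, its accessory chain, had 387 ± 25.3 per kb. *Il1rl1*, which binds IL-33, had 79.8, 136, and 86.1 normalized counts. *Il1r2*, a decoy receptor, was low or uneven (57.6, 37.2, and 47.3). *Il12rb1* and *Il12rb2*, which pair for IL-12, had 447 ± 60.0 and 284 ± 39.0 per kb. *Il10rb*, shared by IL-10 and other cytokines, had 1142 ± 57.6 per kb, above *Il10ra* at 59.8 ± 20.4 per kb.

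Among TNF receptors, 14 of 21 were expressed (66.7%), against 56.8% of protein-coding genes. *Cd27* was the highest per kb (5121 ± 193), and encodes a co-receptor of lymphoid and progenitor cells. *Tnfrsf1a* and *Tnfrsf1b*, which both bind TNF, had 2710.0 ± 109.8 and 2631 ± 95.3 per kb. *Tnfrsf13b*, known for its role in B cells, had 6378, 6219, and 6602 normalized counts. *Fas*, the death receptor, was lower at 195 ± 8.72 per kb. *Cd40* (44.4, 63.1, and 116), *Tnfrsf4* (41.1, 19.2, and 32.3), and *Tnfrsf9* (42.0, 5.63, and 14.0), which act in activated lymphocytes and dendritic cells, were low or uneven.

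Of 15 genes of Toll-like receptors and co-receptors 7 were expressed (46.7%), against 47.7% of all genes and 56.8% of protein-coding genes. None was above the median of expressed genes per kb. *Tlr2*, which senses bacterial lipoproteins, had 1216, 1054, and 1288 normalized counts. *Tlr4*, the lipopolysaccharide receptor, had 1375, 1254, and 1420.0 normalized counts, and its co-receptor *Ly96* had 259, 211, and 211. *Cd14*, which passes lipopolysaccharide to that pair, was low at 73.2, 48.5, and 59.2. *Tlr3* had 131, 115, and 124 normalized counts. *Tlr7* (3.29, 29.3, and 0) and *Tlr9* (8.23, 2.25, and 0), which sense nucleic acids in endosomes, lacked reads in replicate 4.

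Chemokine receptors were expressed at 4 of 19 genes (21.1%), against 56.8% of protein-coding genes. *Cxcr4*, which holds HSCs in the marrow, had 484, 436, and 421 normalized counts and 248 ± 18.3 per kb, below the median of expressed genes. *Cxcr1*, *Cxcr2*, and *Ccr3* were the other expressed genes, none above 100 per kb. *Ccr6* was undetected, and *Ccr2*, the monocyte homing receptor, had 8.23, 67.6, and 50.6 normalized counts. Lipid receptors were expressed at 7 of 9 genes (77.8%), and the difference from chemokine receptors was not tested. *S1pr4* and *S1pr1*, receptors of sphingosine-1-phosphate, had 1785 ± 185 and 791 ± 102 per kb. *Ptger3* and *Ptger4*, prostaglandin E2 receptors, had 1091 ± 107 and 839 ± 84.4 per kb, whereas *Ptger2* was low (17.3, 28.2, and 7.53).

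Of 18 adhesion receptor genes 11 were expressed (61.1%), near the 56.8% of protein-coding genes. *Adgrg1* dominated their summed level of 79288, 79081, and 70393 per kb. The next, *Adgrl4*, an endothelial and stem cell receptor, had 7776 ± 409 per kb. Integrins were led by *Itga2b*, *Itgb1* (5629 ± 372 per kb), and *Itga6* (2624 ± 54.7 per kb). *Itgb3*, partner of *Itga2b*, had 6396, 8765, and 5901 normalized counts, highest in replicate 3. *Itga4*, which binds VCAM1 in the niche, had 4543, 4093, and 4447 normalized counts. *Selplg*, the ligand of P-selectin, had 4931 ± 103 per kb, and *Cdh5* of endothelial junctions was low (4.11, 21.4, and 29.0).

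In the TGF-β and BMP family 10 of 13 receptors were expressed (76.9%), against 56.8% of protein-coding genes. *Eng*, a co-receptor, had 3399 ± 159 per kb. *Tgfbr2* and *Tgfbr1*, the TGF-β signalling pair, had 686 ± 66.8 and 397 ± 62.2 per kb. *Bmpr2* had 116 ± 8.02 per kb and *Bmpr1b* was low (17.3, 15.8, and 22.6). Among Notch, Wnt, and Hedgehog receptors, 17 of 21 were expressed (81.0%). *Smo*, the Hedgehog signal transducer, was highest at 1695 ± 193 per kb. *Notch2* had 462 ± 94.0 per kb, above *Notch1* at 109 ± 17.3 per kb. *Fzd6* was the most abundant Wnt receptor of the Frizzled family, at 614 ± 82.8 per kb. Of 33 nuclear receptors 25 were expressed (75.8%). *Rxrb*, a shared dimer partner, was highest at 3676 ± 127 per kb, and *Nr3c1*, the glucocorticoid receptor, had 738 ± 28.8 per kb. *Nr4a3* was close to absent (5.76, 0, and 2.15), while its relative *Nr4a1* had 541, 693, and 411 normalized counts.

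HSC transcription factors were almost complete, with 36 of 38 expressed. All 7 genes of the heptad, a group whose proteins bind the same enhancers in stem cells, were expressed. *Lmo2*, its non-DNA-binding bridge, was highest, with 56079.8, 53213, and 52739.6 normalized counts and 31659 ± 1059 per kb. *Gata2* had 34842, 38423, and 29761 normalized counts and *Fli1* 12456, 12804, and 10855. *Runx1* had 7796, 7469, and 6117 and *Erg* 2595, 2367, and 2724 normalized counts. *Tal1*, the basic helix-loop-helix factor, had 2302, 2664, and 2139.7, and its relative *Lyl1* had 988, 1021, and 1177. Per kb the heptad ran from *Lmo2* down to *Lyl1* (590.0 ± 56.0) and *Tal1* (562 ± 63.7), which did not differ beyond their spread.

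Beyond the heptad, *Nfe2*, known from platelet formation, had 23695 ± 1090.3 per kb. *Myc* and *Mycn*, which drive growth and division, had 25699.6, 30352, and 21152 and 22886, 23965, and 21857 normalized counts. *Meis1*, a homeobox cofactor gene, had 30487, 29474, and 26048 normalized counts. *Spi1*, which encodes PU.1, had 5799.9, 5759.8, and 5794 normalized counts, nearly the same in each mouse. *Sox17*, a factor of fetal HSCs, had no read in any library, and *Hoxb4* was low or uneven (55.1, 25.9, and 30.1).

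Of 41 lineage transcription factors 26 were expressed (63.4%), against 56.8% of protein-coding genes, and the lineages hold too few factors to be set against that share one by one. All 5 erythroid and megakaryocytic factors were expressed, with *Gata1* at 5453, 8221, and 4557 normalized counts and *Klf1* at 1396, 1290.4, and 1182. *Gata1* and *Gfi1b* (12192, 15728, and 8979.6) were highest in replicate 3, as were 12 of the 18 expressed platelet genes, against 46.0% of all expressed genes. Monocyte and macrophage genes were also highest there, at 11 of 12 expressed genes, and their part in these values was not tested. Of 8 myeloid factors 6 were expressed, but *Cebpa*, needed for granulocyte fate, had only 60.1, 96.9, and 175 normalized counts, rising from replicate 2 to 4. *Cebpe*, of late granulocytes, was low (1.65, 0, and 10.8). *Irf8*, of monocyte and dendritic fate, had 524, 547, and 803 normalized counts. Of 8 B cell factors 4 were expressed, whereas *Pax5* (2.47, 7.89, and 18.3) and *Ebf1* (14.8, 9.02, and 24.7), which fix B cell fate, were low, as were *Pou2af1* and *Irf4*. *Bcl11a*, which acts early in lymphoid development, had 4828, 4528, and 4554 normalized counts. Of 14 T and NK factors 8 were expressed. *Gata3* had 2228, 1732, and 1889 and *Runx3* 2697, 3266, and 2867 normalized counts. *Tcf7* (9.54 ± 6.45 per kb), *Bcl11b* (1.57 ± 1.28 per kb), and *Tbx21* (3.08 ± 2.78 per kb), which mark T cell and NK cell commitment, were low. Of 6 dendritic cell, mast cell, and other factors 3 were expressed, and *Spib*, of plasmacytoid dendritic cells, had no read.

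Homeobox cluster genes past 1 CPM in every library came from 2 of the 4 clusters. Of 39 genes, 9 were expressed (23.1%), against 56.8% of protein-coding genes. These were 6 of 11 in HoxA and 3 of 10 in HoxB. None of 9 in HoxC or of 9 in HoxD was expressed, and 5 and 3 of them were low or uneven. *Hoxa9* had 3184, 3017, and 3313 normalized counts, *Hoxa10* 1589, 2049.9, and 1905, and *Hoxa7* 1155, 1115, and 1232. *Hoxb5* was the most abundant HoxB gene, and *Hoxb2* followed with 204, 208, and 205 normalized counts. The posterior genes *Hoxa13*, *Hoxb13*, and *Hoxd13* had no read.

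Immediate-early genes, which respond within minutes to stimulation or handling, were expressed at 14 of 22 (63.6%), against 56.8% of protein-coding genes. *Ier2* had 7322, 8106, and 7647 normalized counts and *Egr1* had 2744, 3234, and 2778. *Jun* had 7100.1, 7356, and 4033 and *Fos* had 422, 379, and 57.0, both lowest in replicate 4. *Dusp1*, a phosphatase gene induced by stress, was also lowest there, with 3455, 4266, and 2700.2 normalized counts. *Atf3* (6.58, 16.9, and 7.53) and *Egr3* (0.823, 16.9, and 1.08) were close to absent.

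Of 125 cytokine genes 53 were expressed (42.4%) and 25 undetected (20%). These shares were 47.7% and 18.9% of all genes, and 56.8% and 13.6% of protein-coding genes. *Mif*, a secreted enzyme-like cytokine, was highest per kb at 21625 ± 2759.9. *Angpt1*, the ligand of TEK, had 31263, 33561, and 32059.7 normalized counts. *Pf4*, a platelet chemokine, had 7660.5, 6788, and 7496 normalized counts. *Ltb*, of lymphotoxin, had 8079, 7881, and 8803, and *Tgfb1*, known to hold HSCs in quiescence, had 7845, 8812, and 7291. *Il16* had 15431, 15995, and 16084 and *Il18* 862, 667, and 906 normalized counts. *Il12a*, 1 chain of IL-12, had 1749, 2434, and 1408, while its partner *Il12b* was uneven (64.2, 7.89, and 75.3). *Flt3l* had 1191, 1381, and 1095 and *Csf1* 638, 689.7, and 748 normalized counts. *Kitl*, the stem cell factor of the niche, was low (39.5, 29.3, and 49.5), and *Csf3* had no read. *Il3*, *Il9*, *Il17a*, *Il22*, and *Lta* also had no read. Chemokines were led by *Pf4*. *Cxcl10*, an interferon-induced chemokine, was uneven, with 272, 81.1, and 723 normalized counts.

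Of longer lists of mature blood lineages, B cell genes were expressed in 3 of 16, T cell genes in 4 of 16, and NK cell genes in 2 of 10. These shares are 18.8%, 25%, and 20%, against 56.8% of protein-coding genes. *Lat*, an adaptor of T cells and platelets, was the leading T cell gene, with 3879, 4365, and 3774 normalized counts, while *Cd3e* had 5.76, 7.89, and 3.23 and *Cd3g* 4.11, 12.4, and 1.08. *Nkg7*, of NK and cytotoxic granules, had 3209, 2895, and 2992 normalized counts. Granulocyte genes were expressed in 3 of 17 (17.6%). Megakaryocyte genes were expressed in 18 of 19 (94.7%) and summed to 79775, 94667, and 75099 per kb. *Gp9*, of the platelet adhesion receptor, had 3497, 5083, and 3842 normalized counts and *Gp1ba* 1521, 2231, and 1589, each highest in replicate 3. *Gp6*, the collagen receptor of platelets, was the one gene of the list that was not expressed. Of 21 erythroid genes 12 were expressed (57.1%), more than of the erythroid markers but near the share of protein-coding genes. The erythroid list summed to 65877, 73342, and 63794 per kb, led by *Car2* and, unlike those markers, highest in replicate 3. *Alas2*, which starts heme synthesis in red cells, had 50.2, 487, and 68.9 normalized counts and stood out in replicate 3. Complement genes of macrophages were detected in every library, with *C1qb* at 481, 525, and 443 and *C1qa* at 229, 301, and 256 normalized counts. *Vcam1*, also of macrophages, had 632, 781, and 579. Their part in any other result was not tested.

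Cell cycle genes were high. All 26 proliferation genes were expressed, and 21 of them exceeded the median of expressed genes per kb. The summed level was 96551, 106866, and 77632 per kb. *Mcm3*, of the replication helicase, had 35816, 40239, and 28459 normalized counts and *Mcm6* 45241, 51654, and 37441. *Mki67*, the proliferation antigen, had 5599, 4959.7, and 3949, and *Ccnb1*, the mitotic cyclin, had 6663, 7915, and 4747 normalized counts. All 26 were lowest in replicate 4, where 51.6% of all expressed genes were lowest, and 20 were highest in replicate 3, against 46.0% of all. The other 6, *Mki67* among them, were highest in replicate 2, so only the low value of replicate 4 was shared. Replicate 4 is also the mouse with high neutrophil genes and the granulocyte marker sum given above, and their part in this result was not tested. Counts of genes highest or lowest in a mouse, here and for other lists, rest on the scaling by size factors. They were not made in CPM. Of the brakes, *Cdkn1c*, which encodes p57 of quiescent HSCs, had 3078, 2699, and 2901 normalized counts. *Cdkn1a*, of p21, had 245, 175, and 144 and *Cdkn1b*, of p27, 483, 309.9, and 360.4 normalized counts. *Cdkn2a*, known to be silent in young HSCs, was undetected (0, 1.13, and 1.08).

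Genes of the interferon pathway were expressed, whereas its ligand genes were undetected or low or uneven. None of 21 interferon ligand genes was expressed, 10 were undetected, and 11 were low or uneven. *Ifnb1* was uneven, with 37.9, 1.13, and 54.9 normalized counts, and *Ifng* had 0, 6.76, and 0. Reads of *Ifna* genes, which share near-identical copies, are uncertain. Both chains of the type I receptor were expressed, with *Ifnar1* at 6671, 6216, and 6349 normalized counts and *Ifnar2* at 6053, 6449.5, and 5884. *Ifngr1*, the ligand-binding chain for interferon-γ, had 8514, 9046, and 8173 normalized counts and 4061 ± 208 per kb. *Ifngr2*, the second chain, was the lower, at 342 ± 42.8 per kb. *Ifnlr1*, the interferon-λ chain, was low (52.7, 30.4, and 49.5).

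Downstream, 29 of 30 signalling genes were expressed. *Jak1*, the kinase of both receptor classes, had 32373, 34601, and 32283 normalized counts. *Stat2*, a transducer of type I interferon signals, had 5124, 4743, and 4126 normalized counts. *Irf1*, a transcription factor induced by interferon-γ, had 10122, 11119.6, and 12057 normalized counts and 5194 ± 453 per kb. *Irf9*, a DNA-binding partner of STAT2, had 9476, 8993, and 8691, and *Irf7*, which amplifies type I interferon, had 4562, 4184, and 3847. *Irf4* was the only low gene (7.41, 37.2, and 31.2). *Usp18* and *Socs1*, brakes of the pathway, had 2335, 2344, and 2274 and 791, 765, and 752 normalized counts.

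Interferon-stimulated genes (ISGs) were expressed in 75 of 81 cases (92.6%), against 47.7% of all genes and 56.8% of protein-coding genes. Of the ISGs 48 exceeded the median of expressed genes per kb. The single undetected gene was *H2-Q7*, whose reads may be shared with near-identical copies. *B2m*, of the antigen presentation class, was the highest ISG per kb (116435 ± 1838). IFIT, IFITM, and small effector genes were led by *Ifitm3* at 39523 ± 3941 per kb, with *Ifitm2* at 32899 ± 1849.8 and *Ifitm1* at 22169.8 ± 5008. *Ifit1*, which binds foreign RNA, had 2621, 2116, and 2313 normalized counts, and *Isg15*, a ubiquitin-like modifier, had 910.1, 745, and 857. All 18 of the OAS, Mx, and RNA sensor genes were expressed. *Oasl2* had 10015, 8585, and 8937 normalized counts and *Ddx58*, which encodes the RNA sensor RIG-I, had 6341, 5703, and 5502. *Mx1*, which is defective in many laboratory strains, had only 179, 197, and 258. Of the GTPases, *Ifi47* had 12185, 13544, and 10994 and *Igtp* 6881, 9229, and 7298 normalized counts. *Gbp11* was the most uneven, with 104, 439.5, and 936, and its reads may be shared with other GBP genes. Antigen presentation genes were high. *Psmb8*, of the immunoproteasome, had 23829, 27628, and 24345 normalized counts and *Tap1*, the peptide transporter, 16064, 20771, and 18565. *Cd74*, the invariant chain of class II, had 6182, 7584, and 5526, and *Ciita*, its activator, had 393, 611, and 638.

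The ISG classes were ordered differently between mice, and are read against all expressed genes, of which 29.2% were highest and 23.9% lowest in replicate 2, and 46.0% highest and 24.5% lowest in replicate 3. The OAS, Mx, and sensor genes were highest in replicate 2 at 14 of 18, and 8 of 18 were lowest in replicate 3. IFIT, IFITM, and small effector genes were highest in replicate 2 at 10 of 19, and 13 of 19 were lowest in replicate 3. The IRG and GBP genes were lowest in replicate 2 at 10 of 18, and highest in replicate 3 at 11. Antigen presentation genes were lowest in replicate 2 at 13 of 20, and highest in replicate 3 at 13. *Oasl1* (1423, 929, and 1135 normalized counts) and *H2-Ab1*, a class II chain (5323, 7442, and 5659), show these orders. No mouse was highest at most genes of every class.

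Promoters, taken from RefSeq as 300 bases around the start of each gene, were searched for 4 sequence features. These were CpG-rich sequence, TATAAA, CCGGAAGT (a sequence that ETS factors bind), and the interferon response motif. That motif is GAAA, any 2 bases, and GAAA again. Motifs were searched on both strands. CpG-rich means an observed to expected ratio of CpG above 0.6 with GC above 50%. Of all 32851 promoters, 33.3% were CpG-rich, against 64.5% of expressed genes and 10.9% of undetected genes. TATAAA was at 13.6% of all promoters, 6.85% of expressed, and 26.2% of undetected ones. CCGGAAGT was at 3.89%, 8.01%, and 0.893% in the same order. CpG-rich promoters and the ETS sequence were thus more frequent, and TATAAA less frequent, at expressed than at undetected genes. These features are not independent, since CCGGAAGT holds a CpG and TATAAA holds no G or C. Median GC was 60.7% at promoters of expressed genes and 46.3% at those of undetected genes. The part of base composition was not tested.

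Among ISG promoters only 7 of 70 were CpG-rich although nearly all ISGs were expressed, and megakaryocyte genes, mostly expressed as well, had 1 of 15. The interferon response motif was at 3.44% of all promoters, 3.13% of those of expressed genes, and 47.1% of ISG promoters (33 of 70). By class it was at 84.6% of IRG and GBP promoters, 61.5% of OAS, Mx, and sensor promoters, 44% of IFIT and small effector promoters, and 15.8% of antigen presentation promoters. Interferon ligand promoters had it at 11 of 20, and these genes were not expressed. A match is a description, not a site of binding.

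The 6 promoters printed below include expressed ISGs (*B2m*, *Gbp2*, *Ifit1*) and an interferon gene with the same motif that was not expressed (*Ifna4*). The others are a receptor with the ETS sequence (*Ifnar1*) and a neutrophil gene with TATAAA (*S100a8*). Capitals mark every match of the 3 motifs. All come from RefSeq, build GRCm38.p6, read 5′ to 3′ on the gene's strand. They lie at chr2:122147437-122147736, plus strand (*B2m*), chr3:142620413-142620712, plus strand (*Gbp2*), chr19:34640639-34640938, plus strand (*Ifit1*), chr4:88841566-88841865, plus strand (*Ifna4*), chr16:91484965-91485264, plus strand (*Ifnar1*), and chr3:90668821-90669120, plus strand (*S100a8*).
B2m: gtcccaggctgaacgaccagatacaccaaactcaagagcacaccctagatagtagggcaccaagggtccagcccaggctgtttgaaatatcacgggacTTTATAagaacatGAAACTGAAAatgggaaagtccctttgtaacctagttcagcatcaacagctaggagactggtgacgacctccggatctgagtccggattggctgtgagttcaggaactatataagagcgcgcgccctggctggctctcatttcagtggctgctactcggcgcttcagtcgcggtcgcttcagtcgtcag
Gbp2: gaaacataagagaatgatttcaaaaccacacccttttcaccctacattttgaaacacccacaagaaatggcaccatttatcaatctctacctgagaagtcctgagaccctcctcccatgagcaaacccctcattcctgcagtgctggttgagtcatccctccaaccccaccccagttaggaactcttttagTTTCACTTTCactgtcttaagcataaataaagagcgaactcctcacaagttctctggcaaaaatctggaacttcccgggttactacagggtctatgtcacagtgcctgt
Ifit1: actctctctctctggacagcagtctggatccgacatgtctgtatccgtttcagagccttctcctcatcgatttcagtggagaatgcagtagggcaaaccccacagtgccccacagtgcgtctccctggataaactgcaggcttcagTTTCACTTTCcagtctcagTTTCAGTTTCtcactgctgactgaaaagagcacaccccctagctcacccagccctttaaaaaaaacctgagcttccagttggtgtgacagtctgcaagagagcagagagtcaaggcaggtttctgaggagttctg
Ifna4: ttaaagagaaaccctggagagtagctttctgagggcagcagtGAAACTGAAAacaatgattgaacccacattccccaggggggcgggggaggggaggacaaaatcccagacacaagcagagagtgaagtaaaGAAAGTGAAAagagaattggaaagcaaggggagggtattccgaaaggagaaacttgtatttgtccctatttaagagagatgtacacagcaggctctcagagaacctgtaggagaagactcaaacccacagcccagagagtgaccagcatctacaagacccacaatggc
Ifnar1: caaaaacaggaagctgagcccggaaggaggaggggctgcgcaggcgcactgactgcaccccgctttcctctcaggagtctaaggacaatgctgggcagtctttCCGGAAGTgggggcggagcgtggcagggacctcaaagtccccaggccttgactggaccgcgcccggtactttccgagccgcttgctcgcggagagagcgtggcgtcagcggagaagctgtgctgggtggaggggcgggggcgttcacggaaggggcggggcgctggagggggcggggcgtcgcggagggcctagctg
S100a8: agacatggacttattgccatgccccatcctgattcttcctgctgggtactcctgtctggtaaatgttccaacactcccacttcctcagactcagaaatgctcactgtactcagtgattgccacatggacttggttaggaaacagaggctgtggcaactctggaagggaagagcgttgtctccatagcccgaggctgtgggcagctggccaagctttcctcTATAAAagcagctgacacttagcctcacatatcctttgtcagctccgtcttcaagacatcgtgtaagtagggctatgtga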

How the data were processed

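The authors trimmed reads with Trim Galore and aligned them with HISAT2 to mm39 per the submitters' processing notes, counted them with htseq-count, and deposited a signal, the counts divided by DESeq2 size factors. Only the 3 WT columns were used, and 3 per-sample columns were not used here. Every value (100%) was within 0.01 of a whole multiple of the worth of 1 read, so reads were recovered.

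The members and the 35 lists were chosen with earlier results of these data known. Named genes are the 20 highest by mean, the 10 highest per kb, the 10 most uneven with a mean of at least 100, the 5 most even of the top 1000, and members of the lists by role. Some genes that this rule covers are not reported here. No test was made. Lengths (longest transcript, GENCODE vM1) matched 22929 symbols, 2444 of them by synonym, and RefSeq promoters matched 19526. The reference builds differ from mm39, so they gave names, lengths, and promoter sequences only. Alternatives covered thresholds, left-out libraries, scaling, transcript length, and promoter choice. Python 3.11.15, numpy 2.4.6, pandas 2.3.3, scipy 1.17.1, and matplotlib 3.10.9 were used.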

Additional observations from a re-analysis of the deposited data

How the results depend on the processing

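The count of undetected genes depended on the floor, with 2685 genes at 0 reads and 7686 at no more than 10 reads in every library, against 4957. Expressed genes ranged from 11537 (at least 2 CPM) to 17367 (mean normalized count of at least 10). Of the 20 genes highest by mean, 12 were also among the 20 highest per kb, and with the median transcript length in place of the longest, 10 of the 20 highest per kb stayed. Leaving out a mouse kept 19 or 20 of the top 20. Of 175 list counts under other settings, 167 stayed within 1.5 times, and the 8 that moved were small counts of B cell, granulocyte, dendritic, mast cell, and stromal genes. The number of ISGs with an interferon response motif (32 genes) was the same with the first promoter of each gene, an alternative chosen after the data were seen, as was the table of receptor chains. No paired analysis was possible because no groups were compared. With 3 mice, an SD is itself uncertain. Sort purity, antisense reads (the strand setting is not stated), and genes with near-identical copies limit single values.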

Other observations

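Among abundant long noncoding RNAs, *Malat1*, a nuclear RNA, had 41422, 37595, and 44332 normalized counts. *Norad*, which buffers PUMILIO proteins, had 15737, 18934, and 16389.7, and *Gas5*, a host of small nucleolar RNAs, had 7791, 6468, and 8241 normalized counts. *Tug1* had 7308, 7407, and 6999 and *Firre*, an X-linked RNA, had 4576, 4459, and 4765. *Neat1*, the scaffold of paraspeckles, had 3604, 3294, and 4154 normalized counts. These RNAs were chosen after their values were seen, for their known roles among the abundant genes of this RefSeq biotype, and others as abundant are not named. They were not compared per kb, since the length held for *Norad* (0.339 kb) looks too short. Of 1228 microRNA genes 4 were expressed, and of 126 small nucleolar RNA genes 4. Whether such short RNAs enter SMART-Seq v4 libraries was not tested, so these counts do not show that HSCs lack them.

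Of 24 imprinted genes 14 were expressed (58.3%), near the 56.8% of protein-coding genes. *Gnas*, which encodes a G protein subunit, was highest at 9947 ± 319 per kb. *Ndn*, a growth suppressor of HSCs, had 3253, 4486, and 3699.6 normalized counts, and *Grb10*, an adaptor that restrains growth signals, had 7776, 7567, and 6072. *Dlk1* had 202, 269, and 183 and *Meg3*, the RNA of the same locus, had 225, 223, and 213 normalized counts. *H19* was low (12.3, 6.76, and 7.53), as was *Peg10* (4.94, 5.63, and 15.1). *Xist*, which silences 1 X chromosome in females, had 2442, 2118, and 2257 normalized counts, and none of 4 genes of the Y chromosome had a read, in line with the sex given for the mice.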
